A study of Mus musculus with 20 samples.

Results

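The genes described here are 9 transcripts of B cells and antibody-secreting cells: Ighm, Igkc, Ighg2c, Jchain, Mzb1, Cd79a, Cd79b, Bank1 and Ms4a1. They were selected by symbol, on the measured fact that their counts in these tumours are low, from a table of 32285 genes. The rule names no comparison between groups, but the genes were chosen with earlier results of these data known. The low levels themselves are given below as a description. The filter on low counts kept 15875 genes, among them 8 of the 9, and Ms4a1 did not pass.

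B cells recognise antigen with a membrane antibody that pairs 2 heavy chains with 2 light chains and signals through the Cd79a and Cd79b proteins. A naive B cell makes its heavy chain from the mu constant gene, Ighm, and most mouse B cells use the kappa light chain, Igkc. On becoming a plasma cell it secretes large amounts of antibody, can switch to a gamma or alpha constant gene, and raises the J chain and the endoplasmic reticulum protein Mzb1. In tumours, B cells can lie singly or in lymphoid aggregates around vessels.

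The tumours were B16F10, a transplantable melanoma line, grown in immunocompetent wild-type C57BL/6 mice, so that host cells and melanoma cells share each library. All mice received intraperitoneal injections once the tumour measured about 100 mm3, and tumours were excised on day 16. Each of the 4 groups held 5 tumours. They received control IgG alone, propafenone alone, anti-PD-1 alone (an antibody against PD-1, an inhibitory receptor of T cells), or both agents together, called the combination here. Propafenone is an antiarrhythmic sodium channel blocker, and the title of the series names ferroptosis and synergy with immunotherapy. The labels give no age, sex, dose or implantation site, and do not say whether each tumour came from its own mouse, so p-values measure the spread between these tumours.

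Total counts ran from 56.0 to 64.5 M per tumour, and a floor of 3 counts stands for 0.0445 to 0.0576 CPM, the count scaled to a common library total with TMM factors. The number of counts that a single fragment adds is unknown, because the value 4 occurs 11581 times in the table against 5505 times for 3 and 5409 times for 5. A gene listed at 4 may therefore rest on a single fragment. Melanocyte lineage genes, which define the labelled tissue, summed to between 14416 and 23441 CPM in every tumour. Of the 20 tumours, 5 held more than 1000 CPM of the haemoglobin gene Hbb-bs (IgG 4 and 5, propafenone 4 and 5, anti-PD-1 2), and the calls of Ighm are given with and without them.

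Sequences of 2 constant regions are shown first, because the results below turn on the IgM heavy chain and the kappa light chain. Both are the first 150 bases of the first constant exon, given 5′ to 3′ on the coding strand in GRCm38, and the text after each gives where the gene lies.
Ighm: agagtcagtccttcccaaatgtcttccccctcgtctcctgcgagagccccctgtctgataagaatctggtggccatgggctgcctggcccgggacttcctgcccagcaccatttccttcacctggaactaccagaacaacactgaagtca
Igkc: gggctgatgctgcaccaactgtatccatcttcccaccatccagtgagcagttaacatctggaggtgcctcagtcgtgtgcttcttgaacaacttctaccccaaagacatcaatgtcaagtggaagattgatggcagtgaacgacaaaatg
The Ighm stretch is chr12:113422581-113422730 on the minus strand, within a gene (ENSMUSG00000076617) that spans chr12:113418558-113422730. The Igkc stretch is chr6:70726435-70726584 on the plus strand, within a gene (ENSMUSG00000076609) that spans chr6:70726435-70726966. Neither gene shares a run of 100 bases with another annotated transcript elsewhere, and the annotated gene Gm30211, which overlaps Igkc, averaged 0.00236 CPM.

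Ighm, the constant region of IgM, was higher in combination tumours than in all others. Its counts were 18, 62, 14, 150 and 28 in IgG tumours 1 to 5. After propafenone they were 37, 71, 19, 96 and 27, and after anti-PD-1 66, 15, 46, 57 and 66. After the combination they were 354, 226, 505, 368 and 344. The 3 other groups overlapped fully with each other, and the lowest combination tumour (combination 2, 3.57 CPM) lay above the highest of the rest (IgG 4, 2.56 CPM). Of all 15875 genes tested, 54 (0.34%) had every combination tumour above every other tumour, and Ighm was the only one of the 8 tested members to do so.

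In mean CPM, Ighm stood at 0.920 ± 0.964 in IgG, 0.797 ± 0.512 in propafenone, 0.814 ± 0.319 in anti-PD-1 and 5.60 ± 1.60 in combination tumours (SD, n = 5 each). Against IgG the edgeR quasi-likelihood test gave a log2 fold change of 2.60 ± 0.557 (SE), a 6.07-fold difference with a Benjamini-Hochberg adjusted p of 0.0211. Against propafenone it gave 2.81 ± 0.562 with an edgeR adjusted p of 0.0219. These 2 comparisons share the combination tumours and are not independent of each other. Bulk RNA cannot tell more cells of a type from more RNA per cell, here or in any result below.

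**Figure D1:**
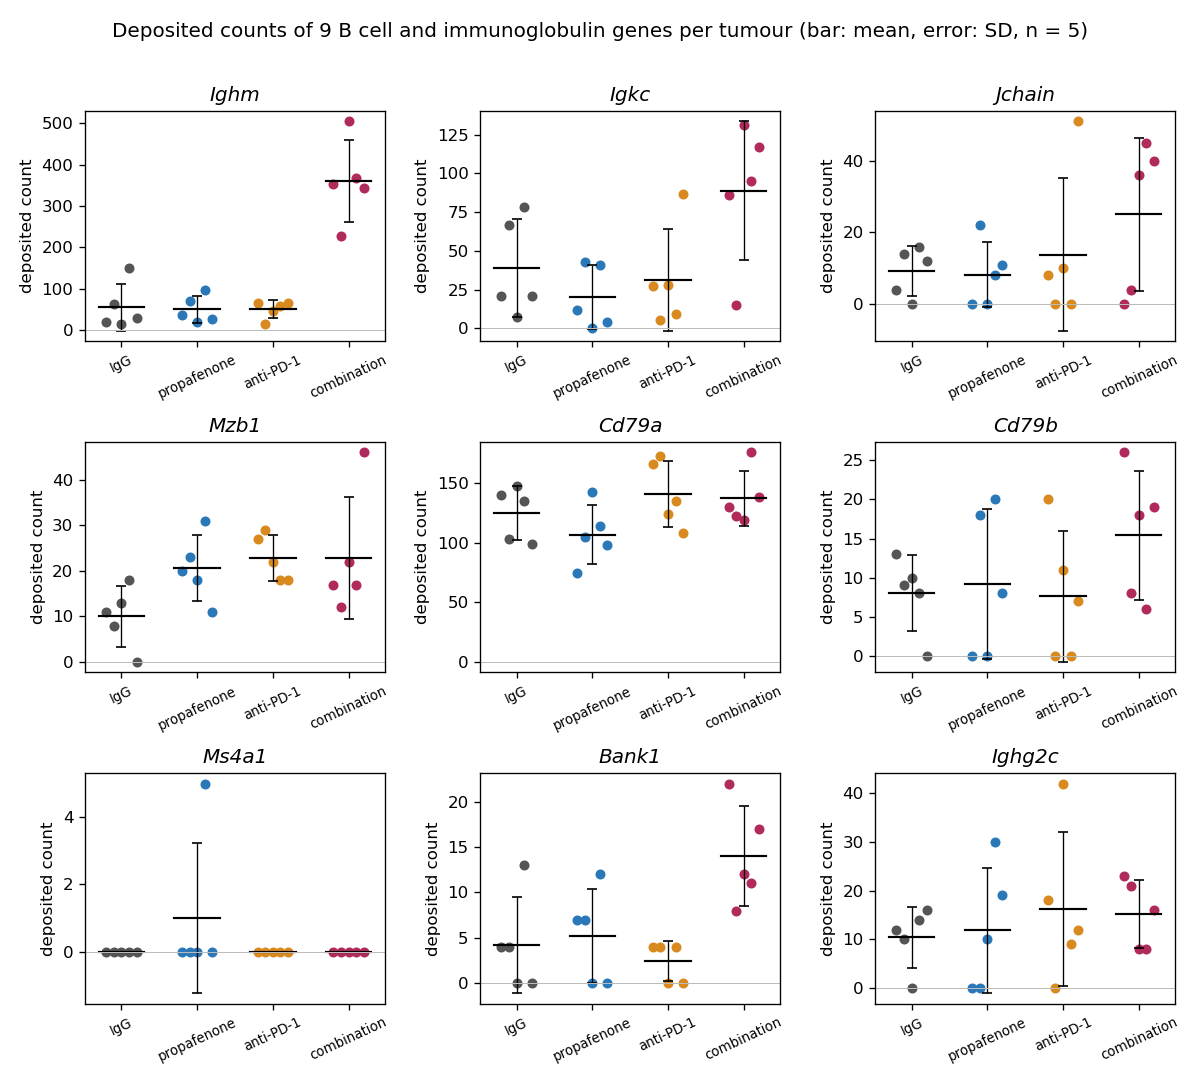
Deposited counts (vertical axis, counts per gene) of the 9 genes in each tumour, by treatment group on the horizontal axis; points are tumours, the bar is the mean and the error bar the SD of 5 tumours. Ighm separates the combination group from the 3 others, Cd79a lies between 75 and 176 in every tumour, and Ms4a1 is at 0 in 19 of 20.

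The Ighm difference was of similar size against anti-PD-1, but it was called by some tests and not by others. edgeR gave a log2 fold change of 2.77 ± 0.562 and an unadjusted p of 7.67e-05, the fourth smallest of all genes, with an adjusted p of 0.261. No gene passed in that edgeR comparison (0% called, 1552 at an unadjusted p under 0.05). With DESeq2, 7 genes were called there, with Ighm at 2.80 and an adjusted p of 0.000712, and limma on log2(TPM + 1) called 2, with Ighm at 2.06 and an adjusted p of 0.00912. Neither drug alone moved Ighm past the test: the log2 fold change against IgG was -0.21 ± 0.543 after propafenone (edgeR adjusted p = 0.974) and -0.17 ± 0.543 after anti-PD-1 (edgeR adjusted p = 0.980).

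The departure of the combination from the added log2 effects of each agent alone (the interaction) was tested after these values had been seen. For Ighm it was 2.98 ± 0.773 on the log2 scale, with an unadjusted p of 0.000966 and an edgeR adjusted p of 0.990. It was 2.14 without IgG 4 and 2.18 without the 5 haemoglobin-rich tumours. No gene passed the interaction test in edgeR (0% called), where 482 had an unadjusted p under 0.05. DESeq2 called 2 genes.

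Calls of Ighm rested in part on single tumours. The adjusted p of edgeR against IgG rose to 0.0630 without IgG 3, 0.0617 without IgG 5 and 0.0571 without combination 5. Without IgG 4, the IgG tumour with the most Ighm, the log2 fold change rose to 3.47. Against propafenone the adjusted p of edgeR rose to 0.0889 without propafenone 3, 0.0650 without propafenone 5, 0.0502 without combination 3 and 0.0588 without combination 5. Without the 5 haemoglobin-rich tumours the log2 fold change was 3.46 (edgeR adjusted p = 0.00521) against IgG and 3.06 (edgeR adjusted p = 0.00814) against propafenone.

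Igkc, the kappa light chain constant region, did not separate the groups. Its counts were 21, 67, 7, 78 and 21 in IgG tumours and 12, 43, 0, 41 and 4 in propafenone tumours. They were 27, 5, 28, 9 and 87 in anti-PD-1 tumours and 86, 15, 131, 95 and 117 in combination tumours. Of the 5 combination tumours 4 were high, but combination 2 lay inside the range of every other group, and anti-PD-1 5 reached the level of the 4 high ones. The log2 fold change of the combination was 1.08 ± 0.827 against IgG (edgeR adjusted p = 0.451), 2.11 ± 0.862 against propafenone (0.149) and 1.43 ± 0.837 against anti-PD-1 (0.578), so none passed. Without anti-PD-1 5 the last value was 2.27 (edgeR adjusted p = 0.481). Propafenone alone gave -1.03 ± 0.853 (edgeR adjusted p = 0.918) and anti-PD-1 alone -0.36 ± 0.835 (edgeR adjusted p = 0.968).

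Set against each other per length, in TPM, the deposited abundance per transcript length, the heavy and light chain gave ratios that varied between tumours. The ratio of Ighm to Igkc TPM lay between 0.266 and 0.684 in IgG tumours and between 0.272 and 2.19 in anti-PD-1 tumours. In propafenone tumours it lay between 0.588 and 2.76 in the 4 with any Igkc, since propafenone 3 was listed at 0. In combination tumours it was 1.38, 5.27, 1.25, 1.29 and 0.994, so all 5 lay above every IgG tumour and overlapped with the other groups. Combination 2 held 4.90 TPM of Ighm with 0.930 TPM of Igkc. The highest ratios rested on few Igkc counts: 15 in combination 2 (5.27), 4 in propafenone 5 (2.76) and 9 in anti-PD-1 4 (2.19). Whether the ratios vary beyond the noise of such low counts was not tested. The ratio was computed after the levels had been seen.

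**Figure D2:**
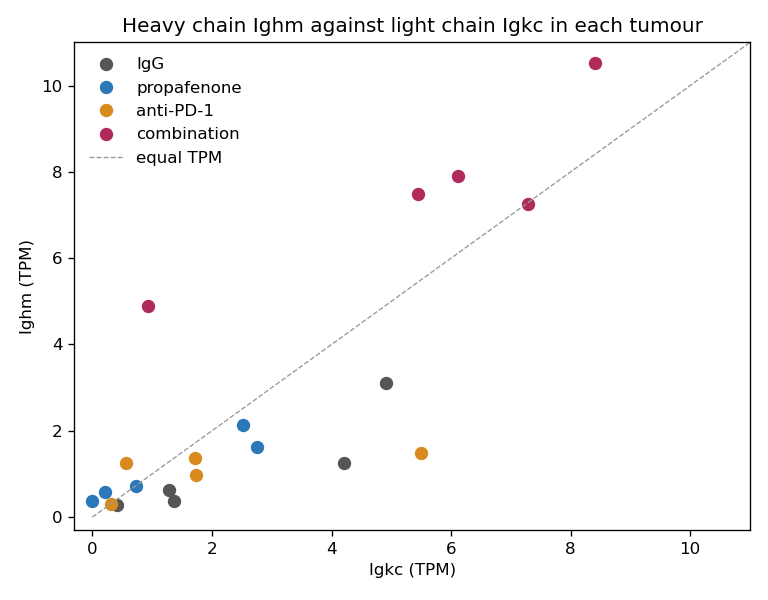
Ighm against Igkc in each tumour, both axes in TPM; each point is 1 tumour coloured by group and the dashed line marks equal TPM. The 5 combination tumours lie between 4.90 and 10.5 TPM of Ighm, and combination 2 stands to the left of the other 4 at 0.930 TPM of Igkc.

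Across the 15 tumours without the combination group, which stands apart in Ighm, Ighm and Igkc rose and fell together, with Pearson's r = 0.781 (permutation p = 0.000640, adjusted 0.00192) and Spearman's rho = 0.818 (permutation p = 0.000360, adjusted 0.00108). Without the 2 tumours farthest from the median, r was 0.724. This was 1 of 15 relations computed with two-sided permutation tests and adjusted together. Over all 20 tumours Igkc followed the summed variable segments with r = 0.826 (permutation p = 3e-05, adjusted 0.000450) and rho = 0.824 (permutation p = 6e-05, adjusted 0.000450), and r was 0.808 without the 2 farthest. Kappa variable segments and Igkc are parts of the same transcripts. A positive relation was thus set in advance, and these p-values support nothing beyond that. Tumours are pooled in these relations across treatments, and the permutations ignored the groups. Groups that differ in both values can thus give a small p without a relation among tumours of a group. No date or batch is given in the labels.

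The variable segments are the parts of antibody genes that bind antigen, and each B cell clone uses 1 heavy and 1 light segment. Of 348 segments in the table, 84 had a count in any tumour, and a single one, Igkv1-117, passed the filter on low counts. Summed over all segments, the counts were 17, 63, 14, 56 and 21 in IgG tumours and 24, 72, 15, 50 and 37 in propafenone tumours. They were 26, 27, 18, 4 and 157 in anti-PD-1 tumours and 99, 13, 162, 151 and 144 in combination tumours. The pattern was that of Igkc: 4 combination tumours and anti-PD-1 5 were high, and combination 2 was low although its Ighm count was 226. Igkv1-117 held the most counts (144 over 14 tumours), of which 48 fell in combination tumours, and it did not pass against IgG.

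Of the other constant genes, Igha, the heavy chain of IgA, was detected in 18 of 20 tumours. Its counts were 11, 69, 12, 27 and 0 in IgG, 22, 29, 7, 36 and 7 in propafenone, 21, 8, 10, 0 and 132 in anti-PD-1, and 42, 17, 74, 24 and 57 in combination tumours. The groups overlapped, and the log2 fold change of the combination against IgG was 0.76 ± 0.950 (edgeR adjusted p = 0.665). Across the 20 tumours Igha followed Igkc, with r = 0.749 (permutation p = 0.000120, adjusted 0.000850), rho = 0.829 (permutation p = 1e-05, the smallest the permutations can give, adjusted 0.000150) and r = 0.721 without the 2 farthest tumours. Over the whole list of 12 constant genes, 4 passed the filter on low counts and 2 (Ighg1 and Ighe) were at 0 in every tumour.

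Ighg2c, the IgG2c heavy chain of C57BL/6 mice, was low and spread over all groups. Its counts were 12, 10, 0, 14 and 16 in IgG, 0, 0, 10, 30 and 19 in propafenone, 18, 0, 42, 9 and 12 in anti-PD-1, and 23, 21, 8, 8 and 16 in combination tumours. The highest count was in anti-PD-1 3, and zeros stood in every group but the combination. The combination differed from IgG by 0.41 ± 0.969 on the log2 scale (edgeR adjusted p = 0.835) and from anti-PD-1 by -0.16 ± 0.951 (edgeR adjusted p = 0.966).

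Reads of Ighg2c can be hard to tell from those of its neighbour Ighg2b, and a stretch of exon 3 shows how close the genes are. Both are on the minus strand of chromosome 12 in GRCm38, at chr12:113287987-113288076 and chr12:113306987-113307076, and capitals mark the 3 of 90 bases that differ.
Ighg2c: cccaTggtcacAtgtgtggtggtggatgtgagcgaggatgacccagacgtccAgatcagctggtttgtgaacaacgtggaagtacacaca
Ighg2b: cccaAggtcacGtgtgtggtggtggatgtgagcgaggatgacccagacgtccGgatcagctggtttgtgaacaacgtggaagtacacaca
Over the 330 bases of exon 3 the genes were 94.2% identical, against 87.6% in exon 1 and 76.2% in exon 4. No run of 100 bases was shared, and Ighg2b was at 0 in 13 of 20 tumours, with a highest count of 50 in a combination tumour. How the authors' counting placed shorter shared reads is not given, so the Ighg2c values are uncertain to that extent.

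Jchain joins IgM and IgA into polymers and marks antibody-secreting cells. Its counts were 4, 14, 0, 16 and 12 in IgG, 0, 22, 0, 8 and 11 in propafenone, 8, 0, 10, 0 and 51 in anti-PD-1, and 0, 4, 36, 45 and 40 in combination tumours. Combination tumours 3, 4 and 5 and anti-PD-1 5 were high, while combination 1 and 2 lay with the other groups. The difference between combination and IgG, 1.29 ± 1.19 on the log2 scale, did not pass (edgeR adjusted p = 0.535). Jchain followed Igkc across the 20 tumours with r = 0.744 (permutation p = 0.000310, adjusted 0.00116), rho = 0.752 (permutation p = 0.000360, adjusted 0.00108) and r = 0.689 without the 2 farthest.

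Mzb1 helps antibody assembly in the endoplasmic reticulum and is also made by plasmacytoid dendritic cells. Its counts were 11, 8, 13, 18 and 0 in IgG tumours, 20, 23, 18, 31 and 11 after propafenone, 27, 29, 22, 18 and 18 after anti-PD-1, and 17, 12, 22, 17 and 46 after the combination. All 3 treated groups had higher means than IgG, with overlap. The log2 fold changes against IgG were 0.97 ± 0.563 for propafenone (edgeR adjusted p = 0.913), 1.20 ± 0.563 for anti-PD-1 (0.648) and 1.06 ± 0.562 for the combination (0.259). Mzb1 lies within the annotated locus of SPATA24 on the same strand, and 49.4% of its windows of 100 bases are shared with that transcript, so the 2 genes cannot be fully told apart.

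Cd79a, the signalling chain Ig-alpha of the B cell receptor, was the steadiest member. Its counts were 140, 103, 148, 135 and 99 in IgG, 75, 105, 143, 114 and 98 in propafenone, 166, 173, 124, 135 and 108 in anti-PD-1, and 130, 123, 119, 176 and 139 in combination tumours. The groups overlapped throughout, and the coefficient of variation of its CPM over the 20 tumours was 22.8%, against 113% for Ighm and 89.7% for Igkc. The combination differed from IgG by 0.02 ± 0.209 on the log2 scale (edgeR adjusted p = 0.967), with a 95% interval from -0.42 to 0.46. Against propafenone the difference was 0.32 ± 0.210 (edgeR adjusted p = 0.379). Across the 20 tumours the Spearman rho of Cd79a with the 7 other tested members lay between -0.226 and 0.203, given as a description.

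Cd79a (ENSMUSG00000003379) lies at chr7:24897381-24902197 on the plus strand, and Arhgef1 begins 715 bases downstream on the same strand with a mean of 79.0 CPM. Whether reads from the end of one gene were counted in the other was not tested. Cd79a shares 1.77% of its windows of 100 bases with the annotated gene Gm32220. Its promoter is shown because it is the member detected at a like level in every tumour and the only one of 3 members with an entry in the RefSeq promoter table (GRCm38.p6) to hold a searched motif. The window is chr7:24897247-24897546 on the plus strand, 250 bases before to 50 after the RefSeq start, and capitals mark the letters AGGAAGT, as bound by ETS factors.
Cd79a promoter: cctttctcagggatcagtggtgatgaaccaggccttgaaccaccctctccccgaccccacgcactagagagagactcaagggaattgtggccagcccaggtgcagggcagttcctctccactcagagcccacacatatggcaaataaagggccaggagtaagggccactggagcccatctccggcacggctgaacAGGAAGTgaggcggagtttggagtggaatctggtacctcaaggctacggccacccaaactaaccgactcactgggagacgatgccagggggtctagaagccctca
On both strands these letters occur in 9.35% of all 32851 promoters of that table. The octamer ATGCAAAT (1.74% of promoters) and the palindromic motif of EBF factors (0.904%) were not found in the windows of Cd79a, Jchain or Bank1. The motifs do not overlap in these windows, and a match is a description of letters only. Each search took 1 fixed pattern of letters, so a binding site that departs from it would be missed. The absence of a match is thus not the absence of a site for that factor. Whether EBF, octamer or other ETS sites with different letters lie in these windows was not tested.

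Cd79b, the Ig-beta partner of Cd79a, was far lower. Its counts were 13, 9, 10, 8 and 0 in IgG, 0, 18, 0, 20 and 8 in propafenone, 20, 0, 11, 0 and 7 in anti-PD-1, and 26, 8, 18, 6 and 19 in combination tumours. Per length, Cd79a averaged 2.97 ± 0.632 TPM and Cd79b 0.239 ± 0.194 TPM (SD, n = 20), although the proteins act as a pair. The combination differed from IgG by 0.84 ± 0.989 (edgeR adjusted p = 0.641), and the groups overlapped.

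Bank1, an adaptor of B cell receptor signalling, had counts of 4, 4, 0, 13 and 0 in IgG, 7, 7, 0, 12 and 0 in propafenone, 4, 4, 0, 4 and 0 in anti-PD-1, and 22, 8, 12, 11 and 17 in combination tumours. Every combination tumour held at least 8 counts, and all other tumours but IgG 4 and propafenone 4 held 7 or fewer. The log2 fold change of the combination was 1.60 ± 0.963 against IgG (edgeR adjusted p = 0.326), 1.37 ± 0.945 against propafenone (0.400) and 2.37 ± 1.02 against anti-PD-1 (0.471). Among the other tools and settings tried against IgG, limma on log2(TPM + 0.1) alone passed, at 1.01 with an adjusted p of 0.0411. Without IgG 4 the edgeR value against IgG was 2.67 (adjusted p = 0.159). A count of 10, the minimum of the filter, was reached by 4 combination tumours and 2 others. Bank1 was thus tested only because of the group in which it is high, and no call is read from any of these values.

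Ms4a1, which encodes the B cell surface protein CD20, was at 0 in 19 of 20 tumours and at 5 counts in propafenone 4. It did not pass the filter and no fold is given. At these depths the floor of 3 counts allows up to 0.0576 CPM in a tumour listed at 0, and more if a single fragment adds several counts.

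**Figure D3:**
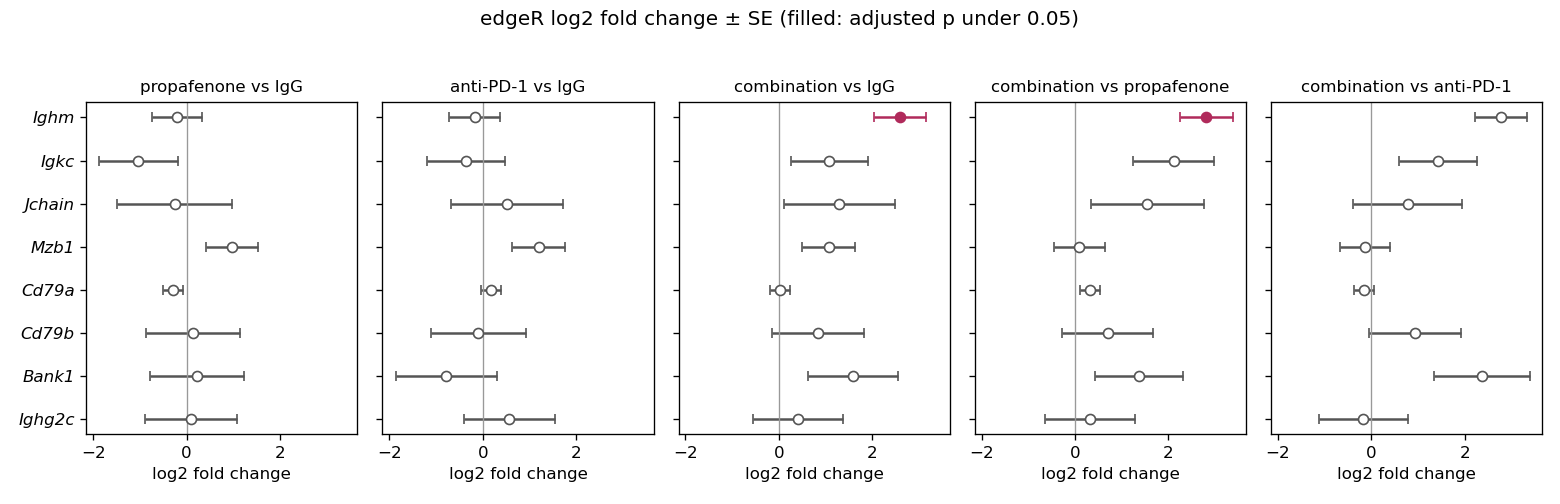
edgeR log2 fold change (horizontal axis) with its SE for the 8 tested genes in 5 comparisons; filled points have an adjusted p under 0.05. Ighm is filled against IgG (2.60) and propafenone (2.81), and no other point is.

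Against IgG, all 8 tested members were higher in combination tumours by point estimate, with a median log2 fold change of 1.07 against -0.01 over all 15875 genes, but only Ighm passed. That count and median describe the genes that passed the filter, Bank1 among them, and support nothing by themselves. In that comparison edgeR called 4.88% of all genes, 2.24% higher and 2.63% lower, and 1 call among 8 members is too few to set the members apart from that share. Against propafenone 1 of 8 passed, again Ighm, with a member median of 1.03, where 3.88% of all genes were called, 1.67% higher and 2.21% lower. These percentages move with single tumours: 774 genes were called against IgG but 5 without IgG 3, and 616 against propafenone but 4 without propafenone 3. Low counts leave wide errors: the SE against IgG was 0.827 or more for Igkc, Jchain, Cd79b, Bank1 and Ighg2c.

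Neither single treatment moved a member past the test. Propafenone against IgG had 4 members higher and 4 lower, with a median of -0.06, and anti-PD-1 against IgG had 4 and 4, with a median of 0.04. Both comparisons share the IgG tumours. In both comparisons edgeR called 0% of all genes (754 and 1203 at an unadjusted p under 0.05), limma on TPM called 0 with either pseudocount, and DESeq2 called 3 and 21. No member was called by any of these tools in either comparison.

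The wider B cell programme was read from gene lists. For these and the lists below, the shares called over all 15875 genes are those given above. Against IgG they were 2.24% higher and 2.63% lower, and against propafenone 1.67% and 2.21%. No list was tested as a set. Of 24 receptor and surface genes, 14 were tested, and 2 rose against IgG: Cd40, the receptor for T cell help, by 1.69 ± 0.424 (edgeR adjusted p = 0.0304), and Blnk, the linker of B cell receptor signalling, by 2.61 ± 0.742 (0.0475). Cd37, a tetraspanin of mature B cells, rose against propafenone by 0.70 ± 0.196 (edgeR adjusted p = 0.0480). Cd40, Blnk and Cd37 are made by macrophages or dendritic cells as well. The list's median log2 fold change against IgG was 1.13. Cr2, a complement receptor of mature B cells, was at 0 in 9 of 20 tumours. The highest levels of the list were those of Cd72 (15.2 TPM), Cd37 (5.17 TPM) and Cd79a (2.97 TPM).

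Of 10 transcription factors of the B lineage, 9 were tested and 1, Pou2f2 (Oct-2), rose against IgG by 2.17 ± 0.612 (edgeR adjusted p = 0.0461). Ets1 (148 TPM), Irf8 (10.3 TPM) and Bcl6 (5.34 TPM) had the highest levels. None passed against propafenone. Pax5, which fixes B cell identity, had 4 to 20 counts in combination and 4 to 16 in IgG tumours, with a log2 fold change of 0.40 ± 0.802 (edgeR adjusted p = 0.798).

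Of 16 plasma cell genes, 14 were tested, none rose and 1 fell: Pim2, a survival kinase, fell by 0.73 ± 0.146 on the log2 scale against IgG (edgeR adjusted p = 0.0183) and by 0.72 ± 0.146 against propafenone (0.0221). The list's highest levels were those of Txndc5 (159 TPM), Xbp1 (146 TPM) and Sec11c (128 TPM), secretory pathway genes that many cell types make. Tnfrsf17, the plasma cell receptor BCMA, was at 0 in 19 of 20 tumours. Of 6 germinal centre genes 3 were tested, and S1pr2 fell against IgG by 0.32 ± 0.0854 (edgeR adjusted p = 0.0380).

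Of 10 factors that attract or sustain B cells, 8 were tested and Cxcl12, a stromal chemokine, rose against IgG by 1.26 ± 0.331 (edgeR adjusted p = 0.0371). Cxcl13, the chemokine of B cell follicles, differed by 1.68 ± 1.43 (edgeR adjusted p = 0.497). Its counts were 0 to 37 in IgG, 0 to 115 in propafenone, 0 to 14 in anti-PD-1 and 14 to 80 in combination tumours. No lymph node stroma or vessel gene of the 4 tested passed against IgG or propafenone, and Chst4 and Glycam1, which mark high endothelial venules, were at 0 in all tumours.

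Genes of other cell types also differed between IgG and combination tumours. Over all genes tested, edgeR called 2.24% higher and 2.63% lower against IgG, and 1.67% and 2.21% against propafenone. Such calls moved with single tumours: 774 genes were called against IgG but 5 without IgG 3, and 616 against propafenone but 4 without propafenone 3. Summed macrophage genes ran from 38.3 to 184 CPM in IgG and from 203 to 454 CPM in combination tumours, with 6 of 10 called higher against IgG and 2 against propafenone. Summed skeletal muscle genes ran from 5.69 to 78.6 CPM in IgG and from 39.0 to 549 CPM in combination tumours, with 6 of 10 and 3 of 10 called higher. Red blood cell genes ran from 290 to 11686 CPM in IgG and from 172 to 453 CPM in combination tumours, with 2 of 7 and 1 of 7 called lower. Anti-PD-1 tumours, whose Ighm lay within the range of IgG tumours, had medians of 206 CPM for macrophage, 176 CPM for muscle and 442 CPM for red blood cell genes, against 52.0, 8.52 and 889 CPM in IgG. Combination 3 had the most Ighm. Its muscle sum was the lowest of its group (39.0 CPM), inside the IgG range, and its macrophage sum the highest (454 CPM). Combination 2 had the least Ighm of its group, with the highest muscle sum (549 CPM) and the lowest macrophage sum (203 CPM). Combination 4 went the other way, with more Ighm than combination 1 (5.76 against 5.56 CPM). Its macrophage sum was lower (249 against 387 CPM) and its muscle sum higher (503 against 438 CPM). The order of Ighm within the group thus followed neither sum throughout, in either direction. The part of these cell types in the Ighm result was not tested.

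Summed T cell genes ran from 13.5 to 24.2 CPM in IgG and from 19.9 to 37.5 CPM in combination tumours. Of 13, none passed against IgG and Thy1, also made by stromal cells, passed against propafenone at 0.96 ± 0.234 (edgeR adjusted p = 0.0334). Of 9 plasmacytoid dendritic cell genes 6 were tested, and Cox6a2, which is also a muscle gene, rose against IgG by 2.26 ± 0.600 (edgeR adjusted p = 0.0376). Keratinocyte genes ran from 1.03 to 2.50 CPM in IgG and from 1.01 to 31.9 CPM in combination tumours. No keratinocyte or melanocyte gene passed in either comparison.

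**Figure D4:**
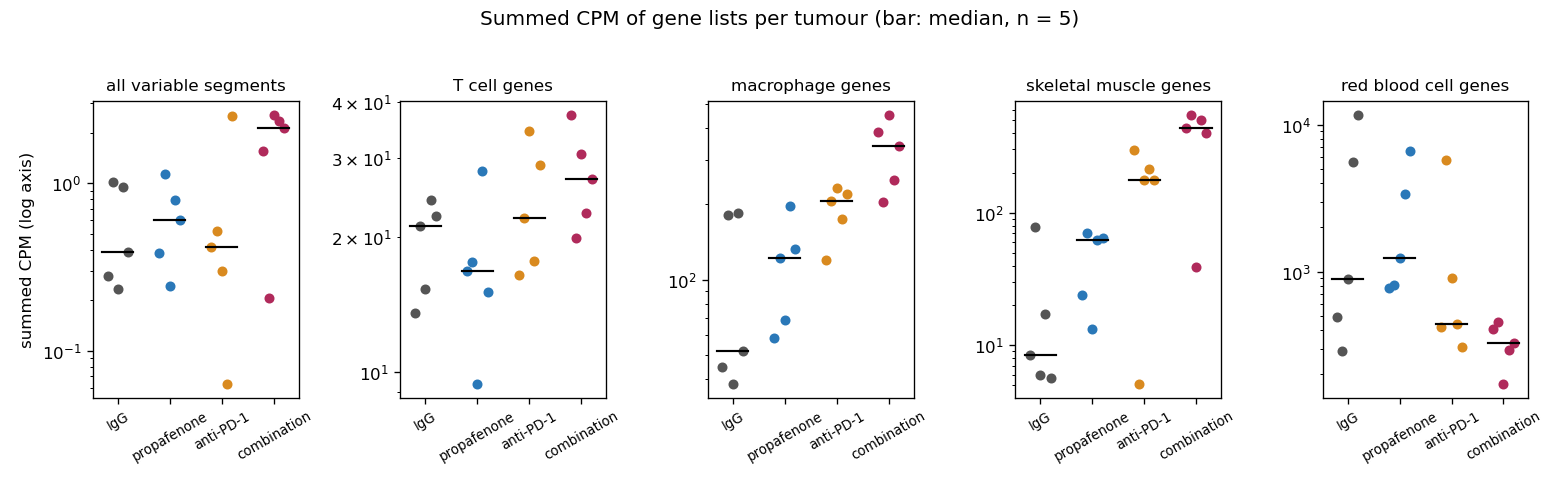
Summed CPM per tumour (vertical axis, logarithmic) of variable segments, T cell, macrophage, skeletal muscle and red blood cell genes by group; points are tumours and bars are medians of 5. Combination tumours lie above IgG tumours in macrophage genes (203 to 454 against 38.3 to 184 CPM), overlap with them in T cell genes, and lie low in red blood cell genes.

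Across tumours, Igkc rose with the T cell sum (r = 0.742, permutation p = 0.000170, adjusted 0.000850; rho = 0.743, permutation p = 0.000310, adjusted 0.00108; r = 0.626 without the 2 farthest, n = 20). It also rose with the macrophage sum (r = 0.633, permutation p = 0.00293, adjusted 0.00732; rho = 0.674, permutation p = 0.00138, adjusted 0.00345; r = 0.542 without the 2 farthest, n = 20). With the muscle sum, Igkc gave r = 0.443 (permutation p = 0.0513, adjusted 0.0665), rho = 0.459 (permutation p = 0.0444, adjusted 0.0512) and r = 0.454 without the 2 farthest. With the red blood cell sum, Igkc gave r = -0.432 (permutation p = 0.0576, adjusted 0.0665), rho = -0.645 (permutation p = 0.00258, adjusted 0.00553) and r = -0.385 without the 2 farthest. Combination tumours were kept for Igkc. They had the highest group means of Igkc (1.38 CPM), the T cell sum (27.5 CPM) and the macrophage sum (327 CPM), so group differences enter these p-values.

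Within the 15 tumours without the combination, Ighm gave r = 0.576 with the muscle sum (permutation p = 0.0253, adjusted 0.0422), with rho = 0.600 (permutation p = 0.0206, adjusted 0.0281) and r = 0.768 without the 2 farthest. With the macrophage sum it gave r = 0.626 (permutation p = 0.0134, adjusted 0.0287), while rho was 0.493 (permutation p = 0.0651, adjusted 0.0698) and r was 0.532 without the 2 farthest. With the T cell sum it gave r = 0.560 (permutation p = 0.0295, adjusted 0.0442), rho = 0.554 (permutation p = 0.0348, adjusted 0.0435) and r = 0.539 without the 2 farthest. With the red blood cell sum it gave r = -0.0615 (permutation p = 0.827, adjusted 0.827), rho = -0.246 (permutation p = 0.374, adjusted 0.374) and r = -0.378 without the 2 farthest.

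In the same 15 tumours Ighm gave r = 0.596 with Jchain (permutation p = 0.0193, adjusted 0.0363), rho = 0.647 (permutation p = 0.0105, adjusted 0.0183) and r = 0.523 without the 2 farthest. With the summed variable segments it gave r = 0.502 (permutation p = 0.0553, adjusted 0.0665), rho = 0.646 (permutation p = 0.0110, adjusted 0.0183) and r = 0.414 without the 2 farthest. With Igha it gave r = 0.490 (permutation p = 0.0638, adjusted 0.0684), rho = 0.627 (permutation p = 0.0140, adjusted 0.0210) and r = 0.529 without the 2 farthest. Heavy chain segments in that sum can be parts of the same transcripts as Ighm. The relations of Ighm and Igkc pool treatments, with permutations that ignored the groups, and none separates a cell type from another.

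Genes whose pattern over the 20 tumours was most like each member were ranked by Spearman's rho of log2(CPM + 0.1). For Ighm they were Epsti1 (rho = 0.929), Ifi44 (0.928) and Lst1 (0.914). For Igkc they were Igkv1-117 (0.884), a kappa variable segment, Sash3 (0.847) and Gpr171 (0.846). Igkc was itself first for Jchain (0.752). The first gene was Mansc1 (0.863) for Mzb1, Tbx18 (0.773) for Cd79a, Tex14 (0.786) for Cd79b, Lrrtm2 (0.888) for Bank1 and Fgf13 (0.762) for Ighg2c. These are the highest values over all tested genes, given as a description without a test, and the points share libraries and treatment groups.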

How the data were processed

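Bulk RNA of 20 B16F10 tumours was sequenced from libraries made with a SMARTER mRNA kit, per the labels' protocols. Per the submitters' processing notes, FastQC, HISAT2 2.2.1 and SAMtools 1.9 were used with the builds GRCm38 and mm10. The counting tool, annotation release and strand setting are not given in the sources used here, so reads of overlapping or antisense genes may not be told apart. The authors deposited a table of expected counts, whole numbers as deposited, and a table of TPM (abundance per transcript length). All 20 columns of both were used. Coordinates are those of GENCODE mouse release 21, which holds 32158 of the table's identifiers. Same-numbered tumours of different groups did not deviate together on average over all genes, which cannot exclude pairing between single groups. No 2 tumours of a group were copies (lowest chi-square per degree of freedom 4.19).

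The main test was the robust quasi-likelihood test of edgeR 4.0.16 under R 4.3.3. A single model with 1 mean per group took in all 20 tumours (16 residual degrees of freedom), after TMM scaling and a filter by filterByExpr with the group labels. A gene was called at a Benjamini-Hochberg adjusted p under 0.05 over all 15875 genes tested. CPM use TMM-scaled library sizes. Standard errors are the log2 fold change divided by the root of the F statistic. Alternatives were other scalings, no filter, DESeq2 1.42.0, limma 3.58.1 on log2(TPM + 1) and log2(TPM + 0.1), counts divided by 4, a replicate block and each tumour left out. The scripts were tested on simulated data.

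Named are the 9 members, list genes past the threshold (up to 3 per list and comparison), the 3 highest by TPM per list, and the 3 genes closest to each member by rho. The members and lists were chosen with earlier results of these data known. Cr2, Pax5, Tnfrsf17, Cxcl13, Igha and other genes at or near 0 were named after their values were seen. The interaction, the ratio of Ighm to Igkc, the 15 relations and the fit without haemoglobin-rich tumours were added after seeing the data. Permutation tests used 100000 resamples. Sequences come from GRCm38 and, for the promoter, from RefSeq.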

Additional observations from a re-analysis of the deposited data

Results flagged for a closer look

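Within groups of 5 tumours, 37 sets of values were searched for a tumour far from its group by Dixon's ratio at the 95% level. For normally distributed values chance exceeds this level in about 1 in 20 groups. The rate for low counts with many zeros was not tested, so the number that stood out, 5, has no known chance rate beside it. In anti-PD-1 5, Igkc was at 1.40 CPM against 0.0960 to 0.466 CPM in the other 4 tumours. Jchain in anti-PD-1 5 was at 0.822 CPM, with 0 to 0.166 CPM in the others. The summed variable segments of that tumour were at 2.53 CPM, with 0.0630 to 0.519 CPM in the others. Kappa segments, 116 of its 157 segment counts, are parts of the same transcripts as Igkc, so these values are not separate support. The Ighm of anti-PD-1 5 (1.06 CPM) did not stand out from its group. In combination 4, Cd79a was at 2.75 CPM, against 1.89 to 2.06 CPM in the others. Ms4a1 in propafenone 4 was at 0.0796 CPM, with 0 in the other 4. Beside 4 zeros any count above 0 stands out in this way, so this value carries no weight.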

How the results depend on the processing

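The Ighm calls of the combination against IgG and propafenone held under every other scaling, filter, test, count scale and block tried. With 1 tumour left out, a call was lost 7 times over both comparisons, as given above, and the fit without combination 5 lost both. Counts of called genes moved more. Against IgG the 774 genes became 480 with library totals, 463 without a filter, 1419 with DESeq2 and 5 to 709 with 1 tumour left out. Against propafenone the 616 became 347, 335 and 1466 in those settings, 1142 without the haemoglobin-rich tumours (a setting chosen after seeing the data) and 4 to 1882 with 1 tumour left out. DESeq2 called 3 genes for propafenone, 21 for anti-PD-1, 7 for the combination against anti-PD-1 and 2 for the interaction, where edgeR called 0. Anti-PD-1 against IgG also gave 13 genes without the haemoglobin-rich tumours and 0 to 1 with 1 tumour left out, and limma on log2(TPM + 1) gave 2 for the combination against anti-PD-1. The cause was not tested. The replicate block called 829 genes against IgG and 675 against propafenone, changed no member's call, and moved Ighm after anti-PD-1 to 0.18, Ighg2c after propafenone to -0.18 and Ighg2c of the combination against anti-PD-1 to 0.11. Same-numbered deviations had a mean correlation of -0.00744 over 30 pairs (from -0.483 to 0.521), and 7 of 20 tumours correlated best with their own number. Haemoglobin-rich tumours bore the numbers 4 and 5 in both IgG and propafenone, and 2 in anti-PD-1. A mean over all pairs cannot exclude pairing between single groups.

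Uncalled log2 fold changes near 0 changed sign in several settings, and the cause was not tested. With limma on log2(TPM + 1), Ighm became 0.047 after propafenone and 0.074 after anti-PD-1, Jchain after propafenone 0.015 and Ighg2c of the combination against anti-PD-1 0.010. With log2(TPM + 0.1) Ighm became 0.18 and 0.25, Cd79b after propafenone -0.055, Ighg2c after propafenone -0.14 and Ighg2c against anti-PD-1 0.26. Without the haemoglobin-rich tumours, values after propafenone were 0.40 for Ighm, 0.25 for Jchain, -0.86 for Cd79b and -1.11 for Ighg2c. Without them anti-PD-1 gave 0.89 for Ighm and 0.24 for Igkc, and the combination against anti-PD-1 gave 0.046 for Mzb1 and 0.0053 for Cd79a. With 1 tumour left out, ranges after propafenone were -0.58 to 0.64 for Ighm, -1.01 to 0.068 for Jchain, -0.35 to 0.47 for Cd79b, -0.33 to 1.28 for Bank1 and -0.58 to 0.42 for Ighg2c. After anti-PD-1 they were -0.42 to 0.69 for Ighm, -1.19 to 0.093 for Igkc, -1.06 to 0.83 for Jchain, -0.81 to 0.22 for Cd79b, -1.09 to 0.29 for Bank1 and -0.16 to 0.89 for Ighg2c. The combination gave -0.086 to 0.085 for Cd79a against IgG, -0.30 to 0.29 for Mzb1 and -0.0068 to 0.99 for Ighg2c against propafenone, and -0.52 to 0.032 for Mzb1 and -0.48 to 0.59 for Ighg2c against anti-PD-1. Bank1 gave no value with counts divided by 4.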
